A study of Mus musculus with 8 samples.

Results

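The 714 regions described here are places inside genes where DC-SCRIPT, the zinc finger protein encoded by Zfp366, gave a CUT&Tag peak in both subsets of conventional dendritic cells of the mouse spleen. The regions were selected on measured values. A region counts where a peak of the cDC2 list shared at least 1 bp with a peak of the cDC1 list, and where its centre lay within the body of a protein-coding gene of build GRCm38 and more than 1 kb from any gene end. Each list holds only peaks that the authors kept for their wild-type signal over the knockout. The regions lay in 619 genes, and they made up 714 of the 1767 regions that the lists shared and of the 2776 peaks of the cDC2 list. At 12 regions the centre lay in more than 1 protein-coding gene, and each of these was counted only for the shortest gene. The cDC1 list held 31473 peaks. All 714 are accounted for below, and no further filter on low signal was applied to them.

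The 8 libraries came from female C57BL/6 mice of an age that the labels do not give. They comprised 2 of cDC2 from zfp366-/- mice, 1 of cDC2 from zfp366+/+ mice, 2 of cDC1 from zfp366-/- mice and 3 of cDC1 from zfp366+/+ mice, each from a pool of mice. No treatment of the mice is named, and the labels do not say which part of Zfp366 is deleted or in which cells. The deposited tables give 1 wild-type and 1 knockout tag set per subset, not values per library, and do not say which libraries entered each set. The spread between mouse pools therefore cannot be seen, cDC2 has a single wild-type library, and no test between genotypes or subsets was made. Exact (Clopper-Pearson) 95% intervals of tag ratios stand in its place and cover counting error only. The cDC2 sets held 6.83 M tags in the knockout and 4.77 M in wild type, and the cDC1 sets held 12.1 M in the knockout and 35.5 M in wild type. The wild-type totals were read as given by the authors, while the knockout totals were inferred here from how the deposited tag columns were scaled. In cDC2 this took the lowest knockout value to be 0.5 tag, as in cDC1. The knockout tag counts and normalised knockout values of cDC2 rest on that assumption. Of the candidate peaks, the authors' limits over knockout and local signal kept 14.2% in cDC2 and 18% in cDC1. Because each sorted subset was measured in bulk, a protein bound in fewer cells and one bound more weakly in every cell cannot be told apart.

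Conventional dendritic cells take up antigen and present it to T cells. The cDC1 subset is known for cross-presenting antigen to CD8 T cells and cDC2 for priming CD4 T cells, and the subsets rely on partly different transcription factors. DC-SCRIPT is a nuclear zinc finger protein that binds DNA, interacts with the corepressor CtBP and is expressed in dendritic cells. Transcription factors bind not only promoters but also stretches inside genes, often in introns, where enhancers of the host gene or of a neighbour can lie. CUT&Tag marks such places by cutting and tagging DNA next to an antibody-bound protein, and the knockout shows how much is tagged where that protein is missing. Whether a region fell in an exon or an intron was not analysed here, because the gene table used gives no exons.

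Although every region lay over 1 kb from the outer ends of its gene, some lay at or near the start of an internal transcript of RefSeq, and their sequence shows what lies under such a peak. Of the 714 regions, 29 (4.06%, exact 95% interval 2.74% to 5.78%) touched a window of 250 bases before to 50 after a RefSeq start in GRCm38.p6. The share was 4.23% among unshared cDC2 peaks inside genes and 4.06% among unshared cDC1 peaks inside genes, and 47.2% among shared regions at gene ends. The 4 sequences below are the parts of a region that precede such a start, read 5′ to 3′ on the strand of the gene. They are shown because Kat5 and Cd300lf had the highest scores among regions with at least 60 bases before such a start, and Sult2b1 and Atp8b4 hold 2 motif matches each. The 8 highest-scoring such stretches also included those of Kdm6a, Ttll9, Smad3 and Rc3h2, which are not printed and held no searched motif. Kdm6a, Ttll9 and Smad3 scored above Sult2b1 and Atp8b4, so the printed sequences overstate how often a motif occurs. Capitals mark matches to 1 of the searched motifs. Kat5 encodes an acetyltransferase of histones, Cd300lf an inhibitory receptor of myeloid cells, Sult2b1 a steroid sulfotransferase and Atp8b4 a lipid flippase.
Kat5, chr19:5610095-5610268, minus strand: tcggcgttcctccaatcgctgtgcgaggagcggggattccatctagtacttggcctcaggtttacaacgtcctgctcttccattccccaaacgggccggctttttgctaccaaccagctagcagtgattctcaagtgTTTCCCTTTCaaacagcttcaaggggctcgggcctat
Cd300lf, chr11:115134018-115134208, minus strand: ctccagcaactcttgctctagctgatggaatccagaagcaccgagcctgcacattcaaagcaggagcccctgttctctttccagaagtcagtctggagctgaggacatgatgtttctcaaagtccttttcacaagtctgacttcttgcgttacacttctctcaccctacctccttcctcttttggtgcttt
Sult2b1, chr7:45742508-45742698, minus strand: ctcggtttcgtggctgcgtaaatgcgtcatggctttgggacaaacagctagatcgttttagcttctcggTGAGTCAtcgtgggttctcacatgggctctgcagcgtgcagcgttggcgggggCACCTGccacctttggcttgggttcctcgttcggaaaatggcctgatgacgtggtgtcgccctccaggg
Atp8b4, chr2:126491554-126491653, minus strand: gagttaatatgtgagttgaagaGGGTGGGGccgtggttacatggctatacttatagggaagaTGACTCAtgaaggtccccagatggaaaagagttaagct

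In the Kat5 sequence the capitals are an IRF motif (2 copies of GAAA set 2 bases apart, here on the other strand), in Sult2b1 an AP-1 motif (TGANTCA) and an E box (CACCTG), and in Atp8b4 a KLF motif (CCCCACCC, on the other strand) and an AP-1 motif. No searched motif occurred in the Cd300lf stretch. The Kat5 region had 9.52 normalised tags, that is tags scaled to 10000000 per set, in knockout cDC2 against 56.5 in wild-type cDC2, and 8.65 in knockout cDC1 against 57.0 in wild-type cDC1. At Cd300lf the values were 4.40 and 49.2 in knockout and wild-type cDC2, and 3.30 and 55.5 in knockout and wild-type cDC1. The intervals of the ratio of cDC2 over cDC1 wild-type signal, 0.639 to 1.49 at Kat5 and 0.537 to 1.34 at Cd300lf, include 1. The Sult2b1 region had 5.13 tags in knockout against 29.3 in wild-type cDC2, and 1.65 in knockout against 26.1 in wild-type cDC1. The Atp8b4 region had 3.66 in knockout against 34.6 in wild-type cDC2, and 7.42 in knockout against 35.2 in wild-type cDC1. All 4 regions were thus higher in wild type in both subsets, as the choice of regions requires.

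Over the whole 300-base windows and both strands, 15 motifs were searched. TGANTCA was found in 5 of the 29 (17.2%), against 7.81% of all 32851 windows in the table. The ETS motif CCGGAAGT was in 3 (10.3%, against 3.89% of all windows), the IRF motif in 3 (10.3%, against 3.44%) and GGAAGTGA in 2 (6.90%, against 3.42%). The E box CAGCTG was in 5 (17.2%, against 16.3%), CACCTG in 3 (10.3%, against 20.2%) and CCCCACCC in 3 (10.3%, against 9.99%). TGTGGTTT, the RUNX motif, was in 1 window (3.45%, against 1.78%), and AGAGGAAGT, the PU.1 motif, in none, against 1.00% of all windows. TTCTTGGAA, a STAT or BCL6 motif, was in 1 (3.45%, against 0.417%), and TTCCTGGAA, the other form searched, in none (against 0.807%). The NF-kB motif and both AP-1-IRF composites were in none, against 0.411%, 0.119% and 0.125% of all windows. An ETS-IRF composite was in 1 (3.45%, against 2.72%), and a match to it can overlap a match to the IRF motif. These counts describe 29 windows, and a match is not a shown binding site. Some windows hold few bases of their region, such as 6 at Ikzf1, 7 at Gabpb1 and 8 at Tnfrsf9. A match in a window can therefore lie outside the peak, and the shares do not describe the peaks themselves.

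Most of the regions lay far from the outer ends of long genes, with internal transcript starts not counted as ends. The median distance to the nearest gene end was 16.9 kb (quartiles 6.77 and 40.5 kb), and 471 regions (66.0%) were more than 10 kb and 138 more than 50 kb from any gene end. The farthest region, 732 kb from an end, lay in Dlg2, a synaptic scaffold gene of 1973 kb. The distance of the other peaks inside genes to the nearest end was also read. This distance was not particular to shared regions: its median was 17.0 kb for unshared cDC1 and 13.3 kb for unshared cDC2 peaks inside genes. Genes holding a region had a median length of 84.5 kb, against 21.3 kb over all protein-coding genes longer than 2 kb. Counted once per peak, the median gene length was 95.3 kb for the regions, 91.3 kb for unshared cDC1 and 78.5 kb for unshared cDC2 peaks inside genes. Of all 19304 such genes 3.21% held a region, and the share was 0.281% of genes of 2 to 10 kb, 1.55% of 10 to 30 kb, 4.55% of 30 to 100 kb, 11.2% of 100 to 300 kb and 11.3% of longer genes. The share of genes with a region thus grew with gene length, up to 300 kb.

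**Figure D1:**
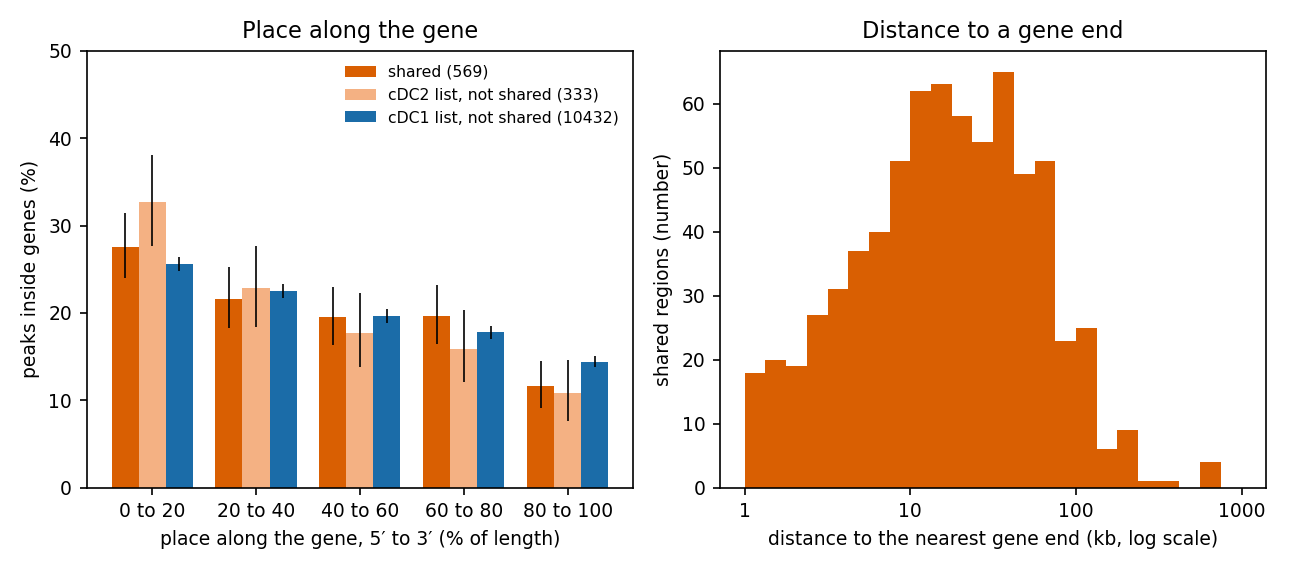
Left, share of peaks inside genes (%) in each 20% of the gene's length from its 5′ to its 3′ end, for shared regions and for unshared cDC2 and cDC1 peaks with known strand; error bars are exact 95% intervals. Right, number of shared regions by distance to the nearest gene end (kb, log scale). The first 20% of gene length held 27.6% of the shared regions and the last 20% held 11.6%, and most distances lay between a few kb and 100 kb.

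The direction of transcription was known for the genes of 569 regions. The median distance from the 5′ end was 29.5 kb. The first 20% of the gene held 157 regions (27.6%, exact 95% interval 24.0% to 31.5%) and the last 20% held 66 (11.6%, exact 95% interval 9.09% to 14.5%), with 123, 111 and 112 between. Unshared cDC1 peaks inside genes also lay more often in the first 20% (25.6%) than in the last (14.4%). For unshared cDC2 peaks the shares were 32.7% and 10.8%. The shared regions were therefore placed along genes much as the other peaks of both lists were, by these intervals.

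The overlap between subsets was mostly close. With peaks of 191 bp in both lists, the median overlap was 148 bp, 35 regions coincided in full, and 538 overlapped over at least 96 bp. The median distance between the centres was 43 bp. At the 176 regions that overlapped over less than 96 bp, the values of the subsets come mostly from different bases. At the lower limit of the rule, the regions in Usf2, Phlpp1 and Cd200r3 overlapped by 2 bp. Inside genes, 714 of 1140 cDC2 peaks were shared (62.6%, exact 95% interval 59.7% to 65.4%), beside 63.7% of all cDC2 peaks, 271 of 467 at gene ends (58.0%, exact 95% interval 53.4% to 62.5%) and 538 of 789 far from genes (68.2%, exact 95% interval 64.8% to 71.4%). Seen from the other list, only 5.21% of the 13735 cDC1 peaks inside genes overlapped a cDC2 peak. The cDC1 list is the longer one and rests on the deeper set. The authors' peak caller also gave an approximate IP efficiency of 0.79 in cDC2 and 6.47 in cDC1. The part of depth and of IP efficiency in these shares was not tested.

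At the 1 kb limit of the rule, regions close to it on the inside were in Ints6l and Rsf1, at 1007 and 1053 bp from a gene end. The nearest left out lay 982 bp from an end of Bach1, 961 bp from an end of Nlrp3 and 948 bp from an end of Xcr1. The region in Rsf1, a chromatin remodelling gene, had 5.86 tags in knockout and 26.2 in wild-type cDC2. The region left out at Nlrp3, an inflammasome sensor gene, had 11.7 in knockout and 91.1 in wild-type cDC2, the highest wild-type value of these.

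All values of signal from here on describe what the choice of regions used, and no test is attached to them. In cDC2 the regions had a median of 3.66 normalised tags in knockout and 26.2 in wild type (quartiles in wild type 19.9 and 34.6), and the median deposited fold, which runs from wild type over knockout, was 6.89 (quartiles 5.24 and 10.9). In cDC1 the medians were 2.06 in knockout and 30.3 in wild type, and the median fold was 15 (quartiles 8.97 and 24.4). The fold was higher in cDC1 at 549 of the 714 regions, and the part of depth and of IP efficiency in this was not tested. Over all peaks the median fold was 7.42 in cDC2 and 10.2 in cDC1, and over all shared regions, the 714 included, 6.83 and 14.4. Shared regions far from genes had medians of 6.94 in cDC2 and 15.1 in cDC1, and those at gene ends 6.43 in cDC2 and 11.6 in cDC1 (quartiles 7.52 and 19.1). In cDC1 the median fold of shared regions inside genes was thus close to that far from genes and above that at gene ends.

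These folds rest on few tags in cDC2. The median region had 2.5 unscaled tags in knockout and 12.5 in wild-type cDC2, against 2.5 and 108 in knockout and wild-type cDC1. The knockout stood at the lowest listed value at 90 regions in cDC2 (12.6%), at 78 in cDC1 (10.9%) and at 16 in both. That value is 0.5 tag in cDC1 and was taken as 0.5 tag in cDC2, and it may also stand for none. Over all shared regions the shares were 11.3% in cDC2 and 10.4% in cDC1, and over all peaks of each list 13.8% and 20.1%. For a region at that value the text gives a lower bound against 3 knockout tags, which equal 4.40 normalised tags in cDC2 and 2.47 in cDC1. Shared regions were stronger than unshared peaks inside genes: the wild-type median of 26.2 in cDC2 stood beside 19.9, and that of 30.3 in cDC1 beside 14.4. Of the 714 regions, 230 (32.2%) were among the top 10% of the cDC1 list by signal. High cDC1 signal was not particular to regions inside genes. The cDC1 wild-type median was 31.3 over all shared regions, 33.35 far from genes and 27.6 at gene ends.

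**Figure D2:**
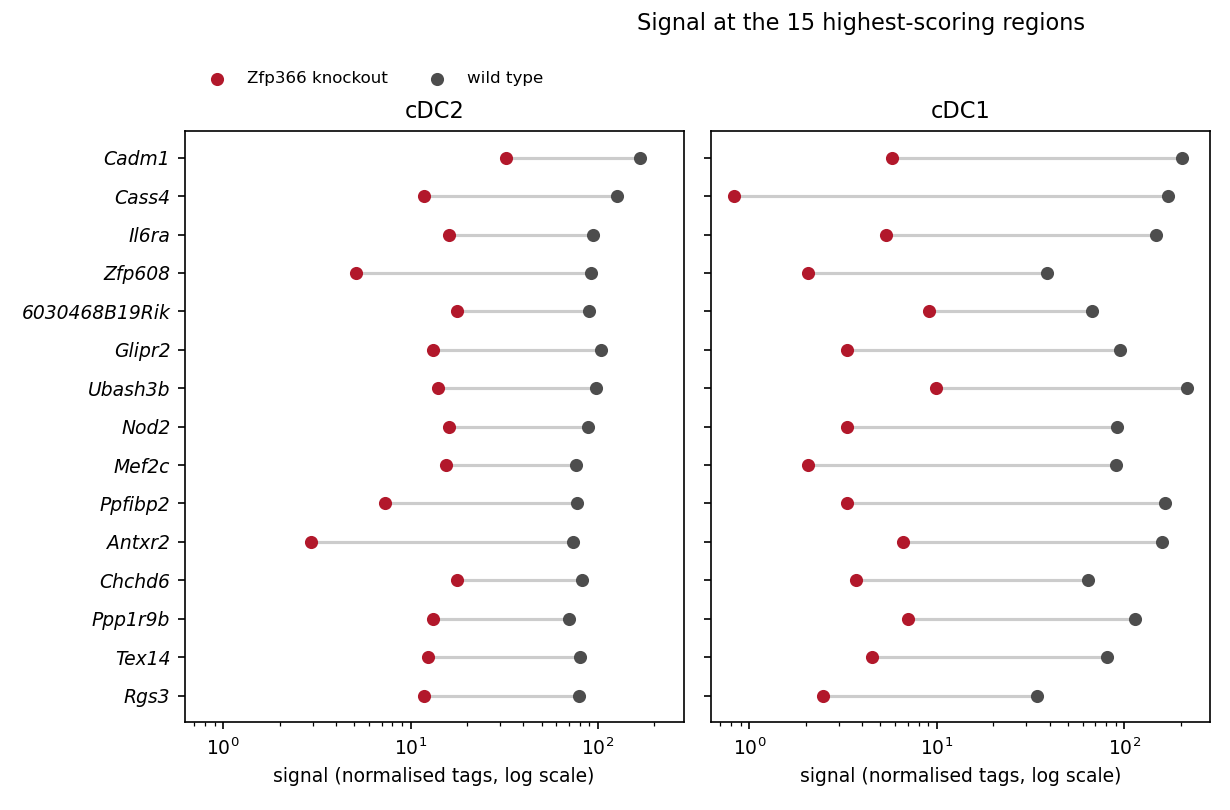
Normalised tags (log scale) in the Zfp366 knockout and in wild type at the 15 regions with the highest cDC2 scores, for cDC2 and cDC1, 1 row per region named by its gene. In both subsets every wild-type point lies right of its knockout point. The cDC2 wild-type values run between 70.2 and 166.5.

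The 15 regions with the highest cDC2 scores, the authors' measure of peak strength in a list, lay in genes of varied roles. The highest lay in Cadm1 (chromosome 9, 47734226 to 47734416), an adhesion molecule that marks cDC1, 128 kb from the nearest gene end. It had 32.2 tags in knockout and 166.5 in wild-type cDC2, a fold of 5.17 (interval 3.21 to 8.75), and 5.77 in knockout and 203.7 in wild-type cDC1, a fold of 35.3 (17.0 to 88.1). Although Cadm1 is a marker of cDC1, the ratio of cDC2 over cDC1 wild-type signal was 0.817, with an interval (0.645 to 1.04) that includes 1. The second lay in Cass4 (chromosome 2, 172401164 to 172401354), a scaffold protein of cell adhesion, 7.62 kb from its 5′ end. Its values were 11.7 and 126.7 in knockout and wild-type cDC2, a fold of 10.8 (5.20 to 26.4). In cDC1 they were 0.824, a single tag, in knockout and 171.8 in wild type, a ratio of 208 with an interval of 37.2 to 8241. Antxr2, a receptor for matrix proteins and anthrax toxin, held a region with 2.93 and 73.3 in knockout and wild-type cDC2, and 6.59 and 159.4 in knockout and wild-type cDC1.

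Il6ra, the receptor chain that binds interleukin 6, held a region (chromosome 3, starting at 89911294) 1.81 kb from its 5′ end. It had 16.1 in knockout and 94.2 in wild-type cDC2, a fold of 5.85 (2.98 to 12.5), and 5.36 in knockout and 148.6 in wild-type cDC1, a fold of 27.7 (12.4 to 64.4). Nod2 encodes a cytosolic sensor of bacterial muramyl dipeptide. Its region (chromosome 8, starting at 88668584) had 16.1 in knockout and 88.0 in wild-type cDC2, and 3.30 in knockout and 91.9 in wild-type cDC1, a ratio of 0.958 (0.677 to 1.32). Ubash3b, a phosphatase that dampens signals of tyrosine kinases, had 13.9 and 97.4 in knockout and wild-type cDC2, against 9.89 and 216.4 in knockout and wild-type cDC1. Rgs3, a regulator of G protein signalling, stood the other way. It had 11.7 and 79.6 in knockout and wild-type cDC2, and 2.47 and 34.1 in knockout and wild-type cDC1.

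Mef2c, a MADS-box transcription factor used in many blood lineages, held a region 68.2 kb from its 5′ end. That region lay at -1.37 kb from an internal RefSeq start, where minus means upstream. It had 15.4 tags in knockout and 76.4 in wild-type cDC2, and 2.06 in knockout and 90.8 in wild-type cDC1. Zfp608, a zinc finger gene, had 5.13 and 92.1 in knockout and wild-type cDC2, a fold of 18.4 (5.86 to 61.6), and 2.06 and 38.8 in knockout and wild-type cDC1, a fold of 18.8 (5.23 to 76.7). Its wild-type signal was higher in cDC2. The other regions of the 15 lay in 6030468B19Rik, Glipr2, Ppfibp2, Chchd6, Ppp1r9b and Tex14. Their wild-type values ran between 70.2 (Ppp1r9b) and 104 (Glipr2) in cDC2 and between 64.0 (Chchd6) and 164 (Ppfibp2) in cDC1. The knockout values at the 15 regions were all below their wild-type values, but in cDC2 they reached 32.2, above the median wild-type value of 26.2 over all regions.

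**Figure D3:**
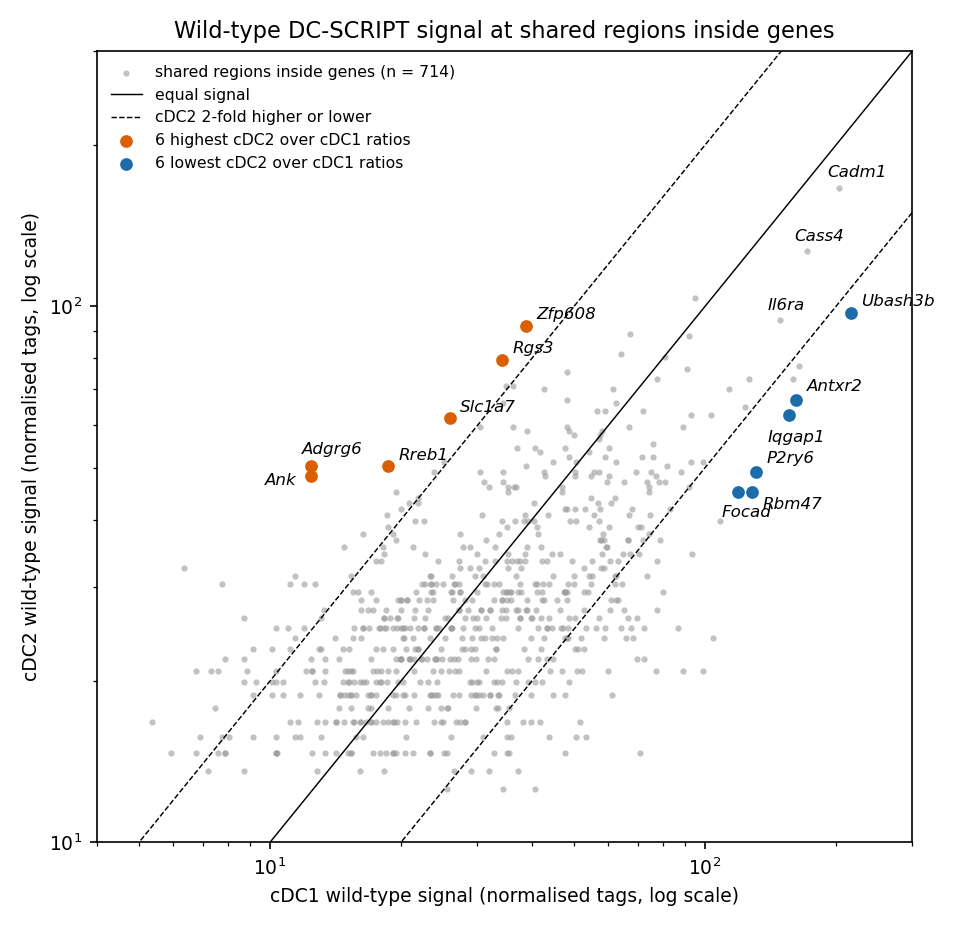
Wild-type signal of the 714 regions in cDC2 against cDC1 (normalised tags, both axes log scale), 1 point per region; lines mark equal signal and 2-fold differences. Regions scatter around the line of equal signal, with Adgrg6 and Ank among the named ones above it and Rbm47 and P2ry6 below it.

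Wild-type signal was compared between the subsets as the ratio of cDC2 over cDC1. Its median was 0.908 (quartiles 0.626 and 1.26), beside 0.919 over all shared regions, 0.959 at gene ends and 0.918 far from genes. It was 1.09 when each list was scaled to the wild-type median of all shared regions, so which subset was higher on the whole depends on the scaling. The ratio was at least 2 at 50 regions (7%), where all shared regions gave 6.73%, and at most 0.5 at 82 (11.5%), where all shared regions gave 11.2%, so the regions inside genes were near the background in both directions. Across the 714 regions the signals of the subsets correlated with Pearson's r of 0.593 on the log2 scale and Spearman's rho of 0.566. This is a description over regions that share the same libraries and are not replicates. With 1 wild-type library of cDC2, a difference between subsets and one between libraries cannot be told apart. The sets also differed in approximate IP efficiency, 0.79 in cDC2 and 6.47 in cDC1, and its part in the ratios was not tested.

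Among the 120 regions with at least 20 wild-type tags in both sets, Adgrg6, an adhesion G protein-coupled receptor, had the highest ratio. Its region had 10.3 tags in knockout and 50.3 in wild-type cDC2, against 2.47 in knockout and 12.4 in wild-type cDC1, a ratio of 4.06 (interval 2.36 to 6.81). Its peaks overlapped by 34 bp, with centres 157 bp apart, so the ratio compares mostly different bases, and the region is lost when an overlap of 50% is asked for. The peaks of the next 5 overlapped by 113 to 191 bp. Ank, a transporter linked to pyrophosphate export, came next at 3.89 (2.24 to 6.57), with 48.2 in wild-type cDC2 and 12.4 in wild-type cDC1. There the cDC1 knockout stood at the lowest listed value, so its wild type was at least 5.01-fold higher than 3 knockout tags. Rreb1, a transcription factor gene, had a ratio of 2.69 (1.62 to 4.37), and Slc1a7, a glutamate transporter gene, 2.39 (1.55 to 3.69), followed by Zfp608 at 2.37 (1.65 to 3.35) and Rgs3 at 2.33 (1.58 to 3.38). The intervals of these 6 overlap one another, so their order is not resolved.

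At the other end stood Rbm47, an RNA-binding protein gene, with 6.59 tags in knockout and 45.0 in wild-type cDC2, and 6.59 in knockout and 128.1 in wild-type cDC1, a ratio of 0.351 (0.211 to 0.532). P2ry6, a receptor for UDP, followed at 0.375 (0.231 to 0.558) and Focad, with an overlap of 83 bp, at 0.377 (0.226 to 0.571). Iqgap1, a scaffold of the cytoskeleton, had 0.403 (0.269 to 0.582), the second region of Antxr2 0.413 (0.280 to 0.590) and Ubash3b 0.450 (0.331 to 0.611). Iqgap1 and P2ry6 each held another region. The other Iqgap1 region, 36.1 kb from the 5′ end against 49.3 kb, had 57.6 in wild-type cDC2 and 57.5 in wild-type cDC1, with an interval of the ratio, 0.661 to 1.52, that does not overlap that of the first. The other P2ry6 region, with an overlap of 79 bp, had a ratio of 0.708 (0.430 to 1.06), and these intervals overlap.

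Of the 619 genes, 540 held 1 region, 67 held 2, 8 held 3 and 4 held 4. The 4 genes with 4 regions were Tex14, known for its role at intercellular bridges of germ cells, Fnbp1, a membrane-bending adaptor of actin assembly, Rad51b, a gene of homologous recombination, and Sgms1, a sphingomyelin synthase. In Tex14 the regions lay between 38.6 and 66.6 kb from the 5′ end. Their wild-type signal in cDC2 was 73.3, 80.6, 52.4 and 22.0 in order along the gene, and in cDC1 it was 126, 80.8, 76.1 and 24.8. In Fnbp1 the values in order of coordinate were 28.3, 32.5, 48.2 and 15.7 in cDC2 and 17.5, 58.5, 43.0 and 30.9 in cDC1. The highest region was thus not the same one in the subsets in either gene, but the counting intervals of the ratio overlapped between any of the 4 regions of a gene. Wild-type signal in Sgms1 ran between 16.8 and 22.0 in cDC2 and between 18.7 and 69.8 in cDC1. At the Sgms1 region with the lowest value in both subsets, the peaks overlapped by only 40 bp, with centres 151 bp apart. In Rad51b, 2 of the 4 lay within 1 kb of each other near the 3′ end of a gene of 551 kb.

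**Figure D4:**
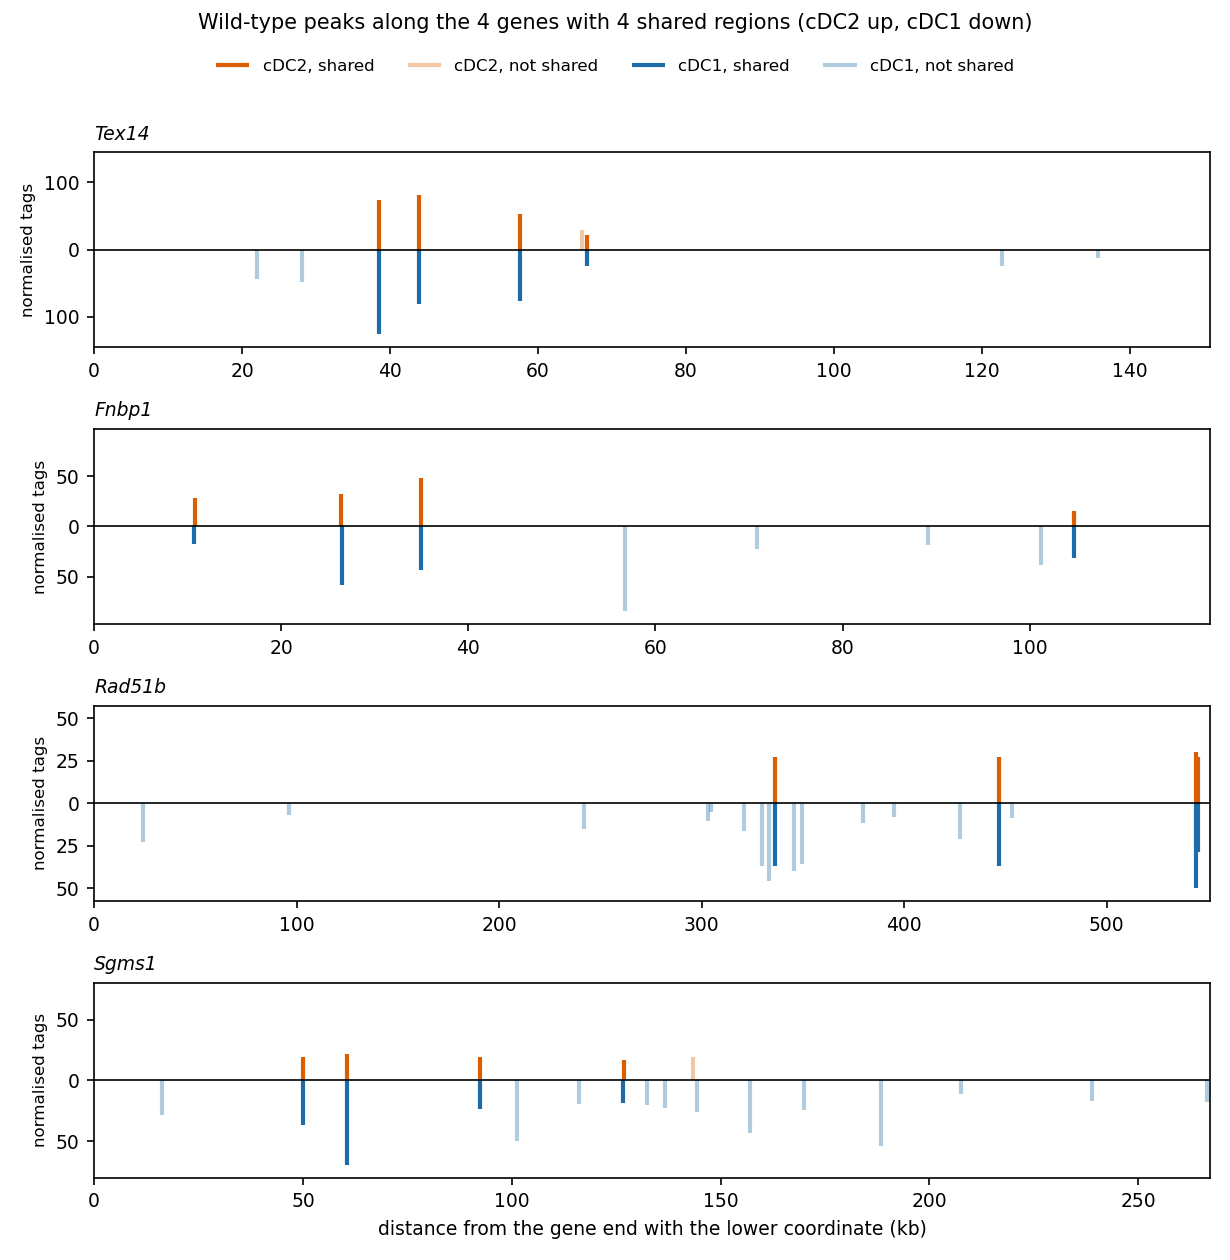
Peaks of both lists along Tex14, Fnbp1, Rad51b and Sgms1: distance from the gene end with the lower coordinate (kb) against wild-type signal (normalised tags), cDC2 upward and cDC1 downward, shared regions in strong and unshared peaks in pale colour. Each gene has 4 shared regions and also holds cDC1 peaks with no cDC2 peak.

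The next genes by summed score, with 3 regions each, were Zfp608, Lpp, Ankrd11 and Atp8b4. In Lpp, a LIM-domain adhesion gene, wild-type signal at the 3 regions was 34.6, 41.9 and 40.8 in cDC2 and 44.5, 82.9 and 74.6 in cDC1. Ankrd11, a chromatin regulator, had 40.8, 33.5 and 28.3 in cDC2 and 38.5, 37.6 and 26.4 in cDC1, the last between peaks that overlapped by 83 bp. The genes held many more cDC1 peaks than shared regions. Counted inside the 619 genes were 839 cDC2 and 3095 cDC1 peaks, with a median of 4 cDC1 peaks per gene over the regions and a maximum of 27, in Lpp and Arhgap26. At 91 regions the gene held no other cDC1 peak. Of the other 623, 287 were the highest cDC1 peak of their gene. Regions in genes with 10 or more cDC1 peaks had median folds of 6.79 in cDC2 and 17.1 in cDC1, and those in genes with 1 had 6.91 and 13.4.

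**Figure D5:**
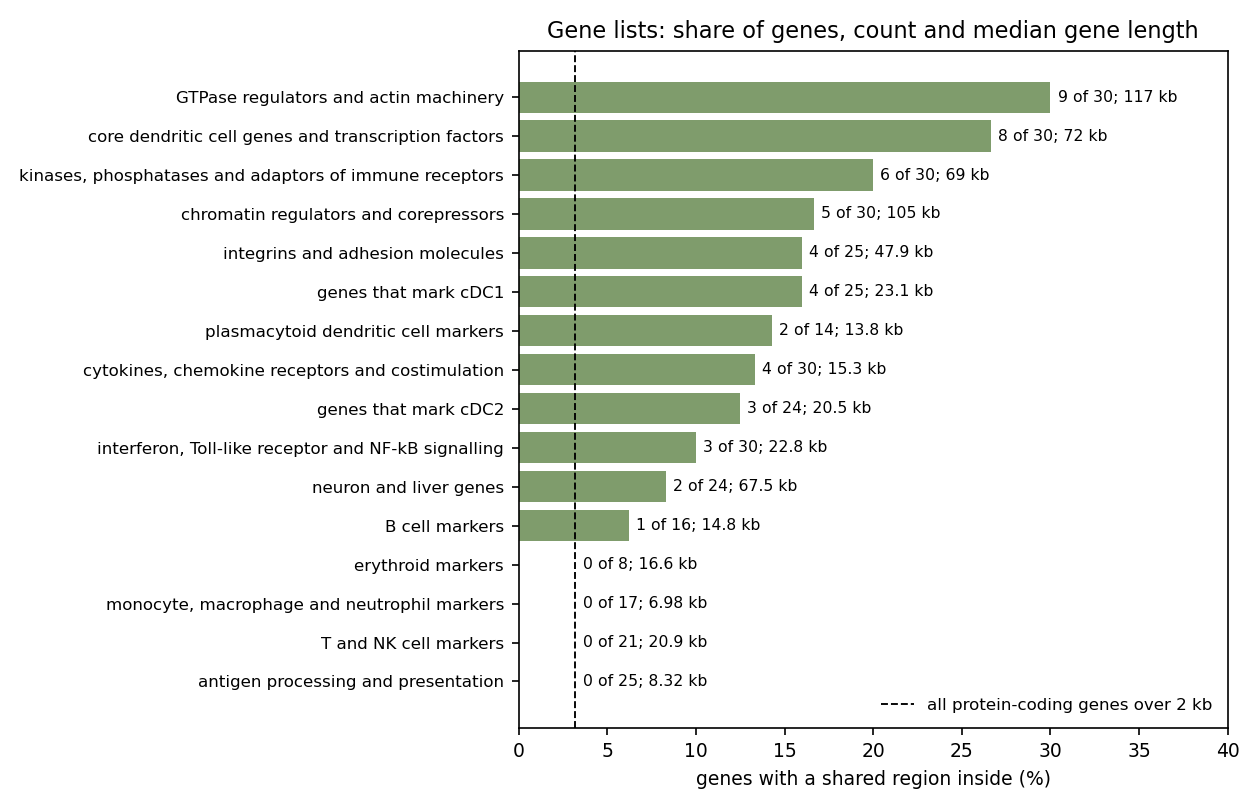
Share of genes over 2 kb (%) in 16 gene lists that hold a shared region inside; the dashed line is the share of all protein-coding genes over 2 kb, and numbers give counts and the list's median gene length. The lists with the highest shares hold long genes, and 4 lists hold no region.

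Lists of genes known in dendritic cells were read against the 3.21% of all protein-coding genes over 2 kb, and with the median gene length of each list, since length moved with the share. The lists were chosen with earlier results of these data known, so a share above 3.21% is a description and no sign of enrichment. Among GTPase regulators and actin machinery, 9 of 30 genes held a region (median length 117 kb): Dock5, Dock8, Dock10, Arhgap15, Arhgap26, Arhgef3, Vav1, Vav3 and Fnbp1. Vav1, a signalling protein of blood cells, had 4.40 tags in knockout and 39.8 in wild-type cDC2, and 2.06 in knockout and 48.9 in wild-type cDC1. Arhgef3, a guanine nucleotide exchange factor, had 3.66 and 45.0 in knockout and wild-type cDC2, and 6.59 and 35.2 in knockout and wild-type cDC1. Dock5 had a low ratio of 0.230 (0.123 to 0.425), with 24.1 in wild-type cDC2 and 105 in wild-type cDC1. It is not among the 120 regions with at least 20 wild-type tags in both sets, and its interval overlaps that of Rbm47 (0.211 to 0.532). The part of gene length in these counts was not tested.

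Among transcription factors and other core genes of dendritic cells, 8 of 30 held a region (median length 72.0 kb): Zbtb46, Ikzf1, Etv6, Zeb2, Tcf4, Bach2, Mef2c and Nfkb1. Zbtb46, a zinc finger gene that marks conventional dendritic cells, held 2 regions. The one 9.55 kb from its 5′ end had 8.06 in knockout and 40.8 in wild-type cDC2, and 2.06 in knockout and 18.6 in wild-type cDC1, a ratio of 2.19 (1.21 to 3.61). The one at 56.6 kb had 5.86 and 36.7 in knockout and wild-type cDC2, and 4.12 and 78.7 in knockout and wild-type cDC1, a ratio of 0.466 (0.280 to 0.772). The intervals of the 2 do not overlap, but the second region overlapped its cDC1 peak by only 4 bp, with centres 187 bp apart, so its tags were counted on nearly separate stretches in the subsets, and it is lost when an overlap of 50% is asked for. Bach2, a repressor of the BTB family, had 2.93 and 31.4 in knockout and wild-type cDC2 and 1.65 and 54.0 in knockout and wild-type cDC1. At Etv6, an ETS repressor, the stronger region had 5.86 in knockout and 33.5 in wild-type cDC2, and 7.42 in knockout and 77.7 in wild-type cDC1. The Etv6 peaks of the subsets overlapped by 79 bp. Zfp366 itself held none of the regions.

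Of the kinases, phosphatases and adaptors of immune receptors, 6 of 30 held a region (69.0 kb): Ptprc, Ptpre, Syk, Fyn, Prkcb and Ubash3b. Syk, the kinase below many C-type lectin and Fc receptors, had 12.5 in knockout and 54.5 in wild-type cDC2, and 4.53 in knockout and 40.6 in wild-type cDC1, and its region lay just downstream of an internal RefSeq start, with 29 bases in the window. Ptprc, which encodes CD45, had 3.66 and 37.7 in knockout and wild-type cDC2 and 2.06 and 58.2 in knockout and wild-type cDC1. Its peaks overlapped by only 4 bp, with centres 187 bp apart, so the tags were counted on nearly separate stretches in the subsets. The Ptprc region is lost when an overlap of 50% is asked for. Chromatin regulators and corepressors gave 5 of 30 (105 kb), namely Chd7, Tet3, Dnmt3a, Rere and Zmiz1. Zmiz1, a coactivator, was the highest of these with 11.7 and 49.2 in knockout and wild-type cDC2. Integrins and adhesion molecules gave 4 of 25 (47.9 kb), namely Itgam, Cadm1, Cass4 and Alcam. At Itgam, the CD11b chain carried by cDC2, the region had 5.13 in knockout and 25.1 in wild-type cDC2, and 1.65 in knockout and 20.4 in wild-type cDC1.

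Marker genes of the subsets were also read as lists. Of the genes that mark cDC1, 4 of 25 held a region (23.1 kb): Cadm1, Rab7b, Fnbp1 and Cd36. Of those that mark cDC2, 3 of 24 did (20.5 kb): Zeb2, Itgam and Il1rl2. Il1rl2, the receptor for interleukin 36, had 2.93 in knockout and 37.7 in wild-type cDC2, and 3.71 in knockout and 41.4 in wild-type cDC1. Rab7b, a small GTPase of late endosomes, held 2 regions with 34.6 and 40.8 in wild-type cDC2 and 70.6 and 66.8 in wild-type cDC1. Cytokines, chemokine receptors and costimulation gave 4 of 30 (15.3 kb), with Pdcd1lg2, Ccr2, Cxcr5 and Il4ra. Pdcd1lg2, the ligand PD-L2, had 3.66 and 39.8 in knockout and wild-type cDC2 and 4.95 and 21.6 in knockout and wild-type cDC1. Interferon, Toll-like receptor and NF-kB signalling gave 3 of 30 (22.8 kb), with Irf5, Irak2 and Irak3.

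Antigen processing and presentation, a list of short genes (median 8.32 kb), gave 0 of 25. Markers of cells that a sort could carry along gave 2 of 14 for plasmacytoid dendritic cells (Tcf4 and Blnk) and 1 of 16 for B cells (Blk). They gave 0 of 21 for T and NK cells, 0 of 17 for monocytes, macrophages and neutrophils and 0 of 8 for erythroid cells. Neuron and liver genes, a list not tied to blood cells, gave 2 of 24, Dlg2 and Cntnap2, which are 1973 and 2241 kb long. Dlg2 had 2.20 and 29.3 in knockout and wild-type cDC2 and 0.824 and 29.9 in knockout and wild-type cDC1. A region inside a gene is not a measure of that gene's expression, so these counts say nothing of which cells were present.

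Besides Nod2, regions lay in some other genes for sensors of the cytosol and antiviral proteins. They were picked after their values were seen, with no count of such genes that hold no region. Aim2, which senses DNA, held 2 regions, the stronger with 8.06 in knockout and 32.5 in wild-type cDC2 and 2.47 in knockout and 52.7 in wild-type cDC1. Nod1, a sensor of bacterial cell wall, had 6.59 and 28.3 in knockout and wild-type cDC2 and a fold of 16.2 (3.24 to 102) in cDC1. Nlrc4, an inflammasome component, had 7.33 and 29.3 in knockout and wild-type cDC2 and 3.30 and 52.7 in knockout and wild-type cDC1. Oas3, an antiviral synthetase, had 6.59 in knockout and 31.4 in wild-type cDC2, and 4.12 in knockout and 23.3 in wild-type cDC1, between peaks that overlapped by 77 bp. At Nlrp10 and Ifit2 wild-type cDC2 reached 15.7. The knockout of Ifit2 stood at the lowest listed value in both subsets, which makes wild type at least 3.57-fold higher in cDC2 and at least 3.70-fold higher in cDC1.

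Cytokine and TNF-family receptors other than Il6ra were likewise gathered after their values were seen. Il20ra, a receptor chain for cytokines of the interleukin 20 group, had 7.33 in knockout and 58.6 in wild-type cDC2, and 0.824 in knockout and 39.0 in wild-type cDC1. Tnfrsf1b, a receptor for TNF, had 11.7 and 48.2 in knockout and wild-type cDC2 and 2.89 and 54.6 in knockout and wild-type cDC1. Tnfrsf8, which encodes CD30, had 44.0 in wild-type cDC2 and 21.9 in wild-type cDC1, a ratio of 2.01 (1.17 to 3.27) between peaks that overlapped by 23 bp. Tnfrsf9, which encodes 4-1BB, had 25.1 in wild-type cDC2 and 12.0 in wild-type cDC1, a ratio of 2.09 whose interval (0.995 to 4.0) includes 1. Lifr, a receptor for leukaemia inhibitory factor, had 47.1 in wild-type cDC2 and 73.7 in wild-type cDC1. Csf2rb2, a receptor chain for interleukin 3, was weak, with 14.7 in wild-type cDC2 and 19.2 in wild-type cDC1.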

How the data were processed

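DC-SCRIPT binding was measured by CUT&Tag in 8 libraries, which were put in groups by the subset and genotype in their titles. Per the submitters' processing notes, HOMER was used with build GRCm38 (mm10), the aligner being not given in the sources used here. Per the file headers, the authors called peaks on 1 wild-type tag set with 1 knockout set as control in each subset, the libraries in each set not being named, with a peak size of 191 bp. The signal the authors deposited is the number of wild-type tags under a peak at a total of 10000000. The deposited score is HOMER's and was used only to rank within a list. The deposited fold is the ratio of tags, wild type over knockout, after scaling for depth. The Poisson p-value the authors deposited supports no statement here. The focus ratio, a fraction per the file headers, was only summarised. Of the columns, 2 were not used.

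Knockout tags were scaled back to their set's depth, as inferred from the deposited columns. Intervals of tag ratios are exact (Clopper-Pearson, scipy 1.17.1), with tags rounded to whole numbers, 0.5 upward. Repeated tags were not removed, which can make intervals too narrow. The wild-type tag columns differed by more than 5% at 15 regions in cDC2 and 5 in cDC1, by at most 10.5%. Genes came from a RefSeq table of GRCm38.p6 with 21900 protein-coding genes. Tables were read with pandas 2.3.3 in Python 3.11.15, and the counting was tested on simulated peaks. The regions and the 16 gene lists were chosen with earlier results of these data known. Of 394 list entries, 379 were matched to genes over 2 kb. Named were the 15 regions with the highest cDC2 scores, the 6 highest and 6 lowest ratios with at least 20 wild-type tags in both sets, the 8 genes with the most regions, up to 4 genes per list (others were named after their values were seen) and 3 regions on each side of the 1 kb limit, of which 1 is not reported here. The 4 printed sequences were chosen after values and motif matches were seen, from RefSeq windows with at least 60 bases of a region before a start. A planned motif search in the peaks was not run, since no genome was used here. Alternatives were other overlap and distance limits, stricter peak limits, and another scaling.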

Additional observations from a re-analysis of the deposited data

How the results depend on the processing

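The number of regions stayed within 1.5 times of 714 with an overlap of at least 50% of the shorter peak (538), with centres within 1 kb (880), over 2 kb (669) or 5 kb (581) from any gene end, and with the ends of all genes counted, non-coding ones included (690). It came to 307 when only cDC2 peaks with a fold over knockout of at least 8 were kept, and to 425 with only scores at or over the cDC2 median; both follow from the removal of peaks. Of the 15 highest-scoring regions, 4 were left at a fold of at least 8, and 12 to 15 under the other alternatives. The median cDC2 over cDC1 ratio was 0.908, and 1.09 when each list was divided by the wild-type median of all shared regions. That scaling multiplies every ratio by the same constant, so the change of side of 1 follows from it by arithmetic. The median cDC2 fold was 6.89, and 6.00 with scores at or over the median, where the cause was not tested. The cDC1 fold of 15 reached at most 15.4.

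No paired analysis was possible because the tables hold 1 tag set per subset and genotype, with no values per library and no list of the libraries in it, and libraries were for the same reason not left out in turn. A motif search in the middle of each peak was not run, since it needs a genome. Depth is 1 limit of the cDC2 values: the median region had 2.5 knockout and 12.5 wild-type tags there, and a knockout of 3 tags already equals 4.40 normalised tags.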

Other observations

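Small RNA genes lay under 2 of the regions. The region in Arl10 (chromosome 13, 54578173 to 54578363) covered part of the hairpin of miR-1271, whose mature forms are read from the RefSeq table, with the seed (bases 2 to 8) in capitals.
mmu-miR-1271-5p: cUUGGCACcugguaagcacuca
mmu-miR-1271-3p: aGUGCCUAcugugugccaagaca
The Arl10 region covered the 3p form in full but only the last base of the 5p form, outside its seed. It had 4.40 normalised tags in knockout and 30.4 in wild-type cDC2, and 3.71 in knockout and 37.5 in wild-type cDC1. The region in Wdfy2 (chromosome 14, 62865398 to 62865588) touched the hairpin of Mir6541. It had 2.20 in knockout and 27.2 in wild-type cDC2, and 7.42 in knockout and 30.6 in wild-type cDC1. Peaks say nothing of whether either small RNA is made.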
